A study of Homo sapiens with 12 samples.

Results

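The genes described here are 35 genes of the endoplasmic reticulum (ER) stress response and of eIF2alpha phosphorylation, taken from a table of 60648 genes by their symbols. They are 11 ER chaperones and co-chaperones, 5 ER oxidoreductases, the sensors of ER stress with the transcription factor XBP1 (4 genes), 5 eIF2alpha kinases and phosphatase subunits, 9 genes of ER-associated degradation and 2 translocon subunits, with EIF2AK3 (PERK) belonging to both the sensors and the kinases. Poly-A RNA of HCT116, an established line of human colon carcinoma cells, was sequenced. The line was wild type (MTHFD2-WT) or MTHFD2 knock-out (MTHFD2-KO), and each genotype was harvested initially and finally, which gives 4 groups of 3 biological replicates. MTHFD2 is an enzyme of folate one-carbon metabolism. Knock-out cells were made with CRISPR-Cas9 and come from 1 clone. The loss of MTHFD2 and other properties of that clone cannot be told apart. Initial RNA was taken directly after the knock-out was made and final RNA 2 months of culture later. All groups were grown in the same serum-supplemented DMEM, and no agent that causes ER stress or amino acid starvation is named in the labels.

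Proteins that fail to fold in the ER activate 3 membrane sensors: IRE1 (ERN1) splices XBP1 mRNA into the form that encodes an active transcription factor, ATF6 is cut in the Golgi to release another, and PERK phosphorylates the translation factor eIF2alpha. Together XBP1 and ATF6 raise chaperones, oxidoreductases and degradation genes of the ER. Phosphorylated eIF2alpha lowers general translation and favours translation of ATF4, and this arm is shared, because the kinase GCN2 (EIF2AK4) phosphorylates the same protein when uncharged tRNAs accumulate, and HRI (EIF2AK1) does so when heme is short or mitochondria are stressed. The question put to the data was whether the ER outputs moved as the ATF4 targets of amino acid stress did. Spliced XBP1, cut ATF6 and phosphorylated proteins are not visible in gene counts.

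Promoter sequences are shown first because they carry the elements by which these 2 kinds of genes are usually told apart. In the RefSeq promoter table (GRCh38.p14), 31 of the 35 members had an entry, and 250 bases before each start were searched on both strands for 4 motifs. They were the ER stress element ERSE (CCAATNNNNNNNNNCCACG), which ATF6 is known to bind with NF-Y; ERSE-II (ATTGGNCCACG) and the core of UPRE (TGACGTGG), known as elements of ATF6 and XBP1; and the C/EBP-ATF composite element (TGATGNAAN), known as an ATF4 element. ERSE letters were held by 7 members (CALR, CANX, CRELD2, ERO1B, HSP90B1, HSPA5 and XBP1), which is 22.6% of the 31, beside 0.0806% of all 27305 promoters. ERSE-II letters were held by 3 members (HERPUD1, HYOU1 and SDF2L1), 9.68% beside 0.0513%. UPRE letters were found in 1 member, HYOU1, where they overlap an ERSE-II match (3.23% beside 0.667%). C/EBP-ATF letters were in 2 members, HERPUD1 and PPP1R15B (6.45% beside 3.18%). Of the 45 amino acid stress genes listed for comparison, 36 had a promoter entry, of which none held ERSE or ERSE-II, 1 (ALDH18A1) held UPRE and 5 (AARS1, ASNS, ATF3, CHAC1 and IARS1) held C/EBP-ATF (13.9%). A match is a description of letters and not evidence of binding. The genes were listed by their known roles and the elements are those known for such genes, so the excess over all promoters is not an independent result.

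The windows below are those of members that held a motif and whose transcripts passed a test in the knock-out. HSPA5 is added as the standard reporter of ER stress. ATF6, DNAJB9, DNAJC3, SEC61A1 and EDEM1 also passed a test in the knock-out, but no match to any of the motifs was found for them. Capitals mark the motif letters, and each window is read 5′ to 3′ on the strand of its gene. HERPUD1 holds both kinds of element, a C/EBP-ATF match followed by ERSE-II (chr16:56931950-56932047, plus strand).
HERPUD1: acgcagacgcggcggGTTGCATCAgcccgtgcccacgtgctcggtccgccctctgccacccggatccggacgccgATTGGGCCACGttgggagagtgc
XBP1, HSPA5 and CRELD2 hold ERSE (chr22:28800598-28800636, minus strand; chr9:125241376-125241424, minus strand; chr22:49918539-49918587, plus strand).
XBP1: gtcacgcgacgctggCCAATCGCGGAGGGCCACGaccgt
HSPA5: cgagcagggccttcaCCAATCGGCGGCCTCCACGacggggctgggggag
CRELD2: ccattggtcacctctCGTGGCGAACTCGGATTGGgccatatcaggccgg
SDF2L1 holds ERSE-II (chr22:21642099-21642139, plus strand) and PPP1R15B holds C/EBP-ATF (chr1:204412021-204412059, minus strand).
SDF2L1: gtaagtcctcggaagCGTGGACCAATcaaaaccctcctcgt
PPP1R15B: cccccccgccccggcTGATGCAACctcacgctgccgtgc
For comparison, the C/EBP-ATF letters of CHAC1 (chr15:40953261-40953269, plus strand) were the same as those in HERPUD1, and those of ASNS lie at chr7:97872468-97872476 on the minus strand. Both lie in exons of other transcripts of the gene in GENCODE 29. AARS1 and IARS1 held the same letters as HERPUD1 and CHAC1, and PPP1R15B held them on the opposite strand, so they are not particular to these genes.
CHAC1: GTTGCATCA
ASNS: TGATGAAAC

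Library totals ran from 38597809 to 40017561 counts. Abundances are given as CPM, counts scaled to 1e6 per library after TMM normalization. MTHFD2 lay between 319 and 457 CPM in the 6 wild-type libraries and between 123 and 155 CPM in the 6 knock-out libraries, so no library went against its label. Among markers of the line, EPCAM (307 to 514 CPM), CDH1, KRT8, KRT18 and KRT19 were abundant and CDX2 was present (10.7 to 16.5 CPM), while VIL1, a brush-border gene, had 1 to 12 counts per library. The 7 epithelial markers summed to 2624 to 3232 and 3061 to 3202 CPM in the wild type, initially and finally. In the knock-out they summed to 2466 to 2705 and 2214 to 2588 CPM. Fibroblast markers DCN and LUM were at 0 in all libraries, COL1A1 was at 36.2 to 77.3 CPM, and the 5 fibroblast markers summed to 56.2 to 78.1 CPM in the wild type and 36.5 to 58.0 CPM in the knock-out. Leukocyte markers summed to at most 0.905 CPM, endothelial markers to at most 2.22 CPM and the plasma and goblet cell markers MZB1, JCHAIN and MUC2, of cells with a large ER, to at most 0.277 CPM. The part of the epithelial and COL1A1 differences in the results was not tested.

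Some libraries stood apart within their groups. The final wild-type replicate 1 was the highest of its group for 25 of the 34 members tested, and replicate 2 was the lowest for 25. The final knock-out replicate 2 was the highest for 23. Deviations from the group mean also followed gene length: over the 9778 genes with a group mean of at least 10 CPM, Spearman's rho between deviation and length was 0.465 in the initial wild-type replicate 1 and -0.497 in replicate 2. In the final knock-out it was 0.346 in replicate 2 and -0.401 in replicate 3 (9643 genes), and in the other libraries it lay between -0.222 and 0.166. The libraries share these genes, and the values are descriptions without a test. Calls that depended on 1 of these libraries are named with the gene.

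In the knock-out clone a few regulators and degradation genes of the ER, namely XBP1, ATF6 and HERPUD1, had lower transcript levels at both harvests. CRELD2, a co-chaperone, was higher at both, but its final call was lost in 10 of 18 alternative fits. The major chaperones, the oxidoreductases and the kinases showed no call. At the initial harvest 8 of the 34 members tested passed the test (adjusted p under 0.05 in edgeR's quasi-likelihood test, Benjamini-Hochberg over 18289 genes), 23.5% beside 19.9% of all genes tested. SDF2L1, CRELD2 and SEC61A1 were higher in the knock-out, 3 of 34 beside 8.55% of all genes. DNAJB9, ATF6, XBP1, HERPUD1 and EDEM1 were lower, 5 of 34 beside 11.3%. At the final harvest 6 members passed, 17.6% beside 18.5% of all genes: DNAJC3 and CRELD2 were higher (8.38% of all genes were) and ATF6, XBP1, HERPUD1 and PPP1R15B were lower (10.2% of all genes were). Both shares are near the background, so the number of calls is not a result about these genes. CRELD2, ATF6, XBP1 and HERPUD1 were called at both harvests with the same direction, 4 genes at the initial harvest only, 2 at the final harvest only and 24 at neither, and the fold change had the same sign at both harvests in 28 of 34. DERL3, a degradation gene, had 0 counts in all 12 libraries, which allows up to 3 counts in each, and could not be tested.

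The differences were small. Over the 34 members, log2 fold changes had a median of 0.03 initially and 0.02 finally, beside 0.00 at both over all genes tested. The final median was 0.09 without the final wild-type replicate 1 and -0.03 without the final wild-type replicate 2, and the initial one was -0.07 without the initial wild-type replicate 2. Single members ran from -0.77 to 0.67 and from -0.59 to 0.40. For 26 of 34 members at the initial harvest and 31 of 34 at the final harvest the whole 95% interval lay within a 1.5-fold change in either direction. Over all 18289 genes tested this held for 10036 and 10235. The libraries of the 2 genotypes did not overlap for 14 members initially and 9 members finally, beside 35.5% and 33.1% of all genes tested.

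**Figure D1:**
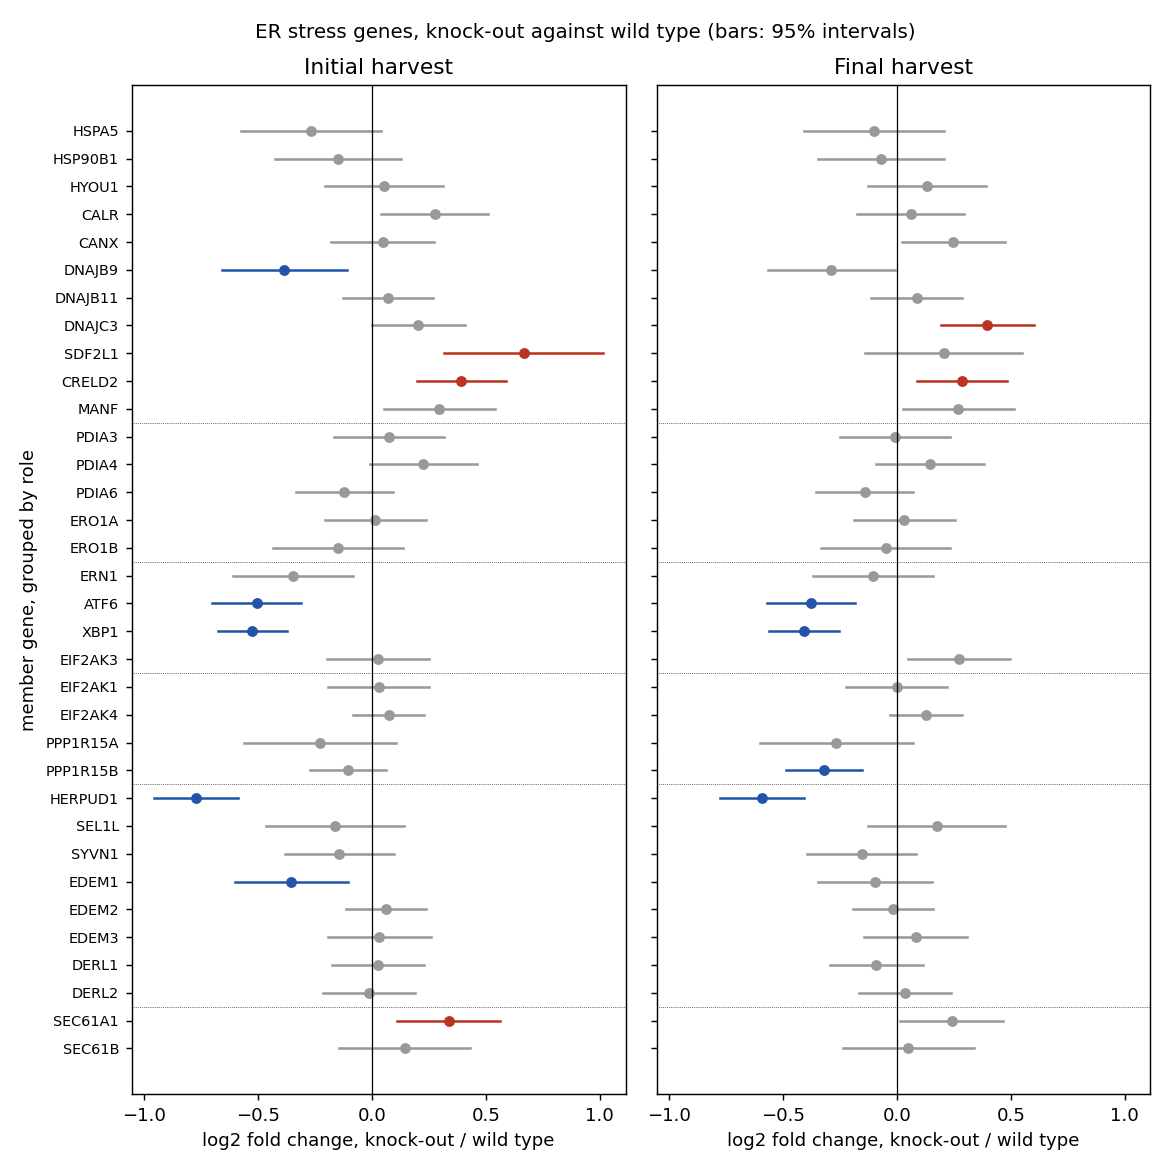
Log2 fold change of knock-out against wild type (x axis) for the 34 tested members (y axis, grouped by role, dotted lines between groups) at the initial and final harvest, with 95% intervals from the edgeR fit as bars. Red points are higher and blue points lower at an adjusted p under 0.05, grey points were not called: HERPUD1 lies farthest to the left in both panels (-0.77 and -0.59), SDF2L1 farthest to the right at the initial harvest (0.67).

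Among the sensors and XBP1, ATF6 and XBP1 were lower in the knock-out at both harvests, and ERN1 and EIF2AK3 were not called. XBP1 (ENSG00000100219.16, chromosome 22, 28794555 to 28800597, minus strand) encodes the transcription factor that IRE1 activates by splicing. It was measured at 127, 130.2 and 128 CPM in the wild type initially and 108, 96.3 and 103 CPM finally. XBP1 in the knock-out stood at 85.9, 92.9 and 89.3 CPM initially and 75.6, 76.1 and 80.3 CPM finally. All 6 knock-out libraries were below all 6 wild-type libraries, and within each genotype the final libraries were below the initial ones. Group means of XBP1 were 129 ± 1.54 and 103 ± 6.03 CPM in the wild type, and 89.4 ± 3.54 and 77.3 ± 2.59 CPM in the knock-out (SD, n = 3). Knock-out levels were 69.5% of the wild type at the initial harvest (log2 fold change -0.52, SE 0.0718, 95% interval -0.68 to -0.37, adjusted p 6.02e-05) and 75.4% at the final harvest (log2 fold change -0.41, SE 0.0719, 95% interval -0.56 to -0.25, adjusted p 0.000682). Neither call was lost under any of the 18 alternatives run. Spliced and unspliced XBP1 mRNA count towards the same gene. In bulk RNA, fewer cells with a transcript and less of it per cell cannot be told apart.

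ATF6 (ENSG00000118217.7, chromosome 1, 161766298 to 161977574, plus strand) encodes the ER membrane sensor that is itself a precursor of a transcription factor. Its levels were 147, 128 and 140.2 CPM in the wild type initially and 161, 131 and 136 CPM finally. ATF6 in the knock-out stood at 99.1, 101 and 92.5 CPM initially and 109, 119 and 102 CPM finally. The knock-out was lower without overlap at each harvest, and the wild type hardly differed between harvests (means of 138 ± 9.59 and 143 ± 15.7 CPM, SD, n = 3). In the knock-out the means were 97.5 ± 4.39 CPM and 109.9 ± 8.40 CPM. Fold changes gave log2 fold change -0.51, SE 0.0917, 95% interval -0.70 to -0.31, adjusted p 0.000861 at the initial harvest and log2 fold change -0.38, SE 0.0915, 95% interval -0.57 to -0.18, adjusted p 0.00789 at the final harvest, and both calls were kept in all 18 alternatives.

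ERN1 (IRE1, the kinase and RNase that splices XBP1; ENSG00000178607.17, chromosome 17, 64039080 to 64130819, minus strand) had 47.9, 37.6 and 38.9 CPM in the wild type initially and 40.3, 29.6 and 31.4 CPM finally. ERN1 in the knock-out stood at 34.4, 32.96 and 30.6 CPM initially and 32.98, 33.8 and 27.3 CPM finally. The initial knock-out libraries lay below the initial wild type without overlap, but the difference missed the threshold (log2 fold change -0.35, SE 0.124, 95% interval -0.61 to -0.08, adjusted p 0.0613), and the final libraries overlapped (-0.11, adjusted p 0.63). ERN1 at the initial harvest passed in 5 of the 18 alternatives, among them leaving out the initial wild-type replicate 2 and leaving out the final wild-type replicate 1. EIF2AK3 (PERK; ENSG00000172071.15, chromosome 2, 88556741 to 88691518, minus strand) had 32.6, 25.4 and 31.8 CPM in the wild type initially and 29.5, 24.5 and 24.96 CPM finally. EIF2AK3 in the knock-out stood at 30.04, 31.1 and 30.2 CPM initially and 31.3, 34.5 and 29.5 CPM finally. Its initial groups overlapped almost fully (log2 fold change 0.03, SE 0.105, 95% interval -0.20 to 0.25, adjusted p 0.896). At the final harvest the fold change was 0.27 (95% interval 0.05 to 0.50, adjusted p 0.0867), not called, and it passed in 2 alternatives, without the initial wild-type replicate 2 and without the final wild-type replicate 1.

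Of the 11 chaperones and co-chaperones, 3 were called at the initial harvest (27.3% beside 19.9% of all genes tested). At the final harvest 2 were called (18.2% beside 18.5%). With so few genes the counts are not a result about chaperones. The most abundant of the chaperones were not called. HSPA5 (BiP, the Hsp70 of the ER; ENSG00000044574.9, chromosome 9, 125234853 to 125241382, minus strand) had 1881, 1800.0 and 1584 CPM in the wild type initially and 1903, 1201 and 1248 CPM finally. HSPA5 in the knock-out stood at 1569, 1389.7 and 1420.1 CPM initially and 1327, 1444 and 1291 CPM finally. Replicate 1 of the final wild type was far above its 2 partners, so that the final groups overlapped, whereas the initial groups did not. The fold change was log2 fold change -0.27, SE 0.145, 95% interval -0.57 to 0.04, adjusted p 0.223 at the initial and log2 fold change -0.10, SE 0.145, 95% interval -0.41 to 0.21, adjusted p 0.705 at the final harvest. Without the final wild-type replicate 1, the initial difference, in which that library takes part only through the shared spread, passed with adjusted p 0.0439. HSP90B1 (GRP94, the Hsp90 of the ER) was close to HSPA5 in pattern, with 2473, 1738 and 1832 CPM in the final wild type and fold changes of -0.15 (adjusted p 0.476) and -0.07 (adjusted p 0.776). Without the final wild-type replicate 1 the final fold changes turned in direction, to 0.15 for HSPA5 and 0.11 for HSP90B1, and were not called either.

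CRELD2 (ENSG00000184164.15, chromosome 22, 49918167 to 49927540, plus strand), a secreted ER stress-inducible protein with ER retention, was higher in the knock-out at both harvests. It stood at 43.5, 54.02 and 45.6 CPM in the wild type initially and 48.9, 43.6 and 41.9 CPM finally. CRELD2 in the knock-out stood at 62.1, 62.98 and 62.8 CPM initially and 50.2, 56.4 and 57.1 CPM finally. Every knock-out library was above every wild-type library of the same harvest. Means were 47.7 ± 5.58 against 62.6 ± 0.482 CPM at the initial harvest (log2 fold change 0.39, SE 0.0927, 95% interval 0.20 to 0.59, adjusted p 0.00633) and 44.8 ± 3.67 against 54.6 ± 3.83 CPM at the final harvest (log2 fold change 0.29, SE 0.0930, 95% interval 0.09 to 0.48, adjusted p 0.0418; SD, n = 3). The initial call was kept in all 18 alternatives, but the final call was lost in 10 of them, with adjusted p up to 0.19, including the fit without a low-count filter (adjusted p 0.0666) and those that left out the initial wild-type replicate 3, the final wild-type replicate 2 or 3, the final knock-out replicate 2 or 3, or any of the initial knock-out libraries.

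SDF2L1 (ENSG00000128228.5, chromosome 22, 21642302 to 21644299, plus strand), a cofactor of the BiP chaperone cycle, had 12.4, 23.9 and 20.4 CPM in the wild type initially and 24.8, 25.4 and 25.4 CPM finally. SDF2L1 in the knock-out stood at 28.5, 29.7 and 31.7 CPM initially and 25.7, 29.1 and 32.5 CPM finally. Replicate 1 of the initial wild type was the lowest library of all. The initial groups did not overlap, with means of 18.9 ± 5.91 and 29.96 ± 1.65 CPM (SD, n = 3; log2 fold change 0.67, SE 0.164, 95% interval 0.32 to 1.02, adjusted p 0.0085), and the fold change ranged from 0.44 to 0.87 over the alternatives without loss of the call. Final libraries did not overlap either, but the difference was not called (log2 fold change 0.21, SE 0.163, 95% interval -0.14 to 0.55, adjusted p 0.439). The change of its genotype difference between harvests was -0.46 (95% interval -0.95 to 0.03, adjusted p 0.442). With time in the wild type it was not called (0.42, adjusted p 0.16) and passed without the initial wild-type replicate 2.

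DNAJC3 (P58IPK, a BiP co-chaperone also known as an inhibitor of eIF2alpha kinases; ENSG00000102580.15, chromosome 13, 95677139 to 95794988, plus strand) had 116, 90.9 and 102 CPM in the wild type initially and 107, 102 and 109 CPM finally. DNAJC3 in the knock-out stood at 114, 118 and 123 CPM initially and 139.9, 155 and 124 CPM finally. At the final harvest the knock-out was higher without overlap, 139.6 ± 15.2 against 106 ± 3.72 CPM (SD, n = 3; log2 fold change 0.40, SE 0.0958, 95% interval 0.19 to 0.60, adjusted p 0.00742), and this call was kept in all 18 alternatives. The initial difference was not called (0.20, adjusted p 0.155) and passed in 1 alternative, without the initial wild-type replicate 1 (adjusted p 0.0429). DNAJB9 (ERdj4, a BiP co-chaperone known to hold IRE1 inactive; ENSG00000128590.5, chromosome 7, 108569867 to 108574850, plus strand) had 24.5, 19.3 and 23.6 CPM in the wild type initially and 15.3, 14.4 and 16.5 CPM finally. DNAJB9 in the knock-out stood at 16.2, 17.02 and 18.4 CPM initially and 15.4, 12.1 and 10.3 CPM finally. It was lower in the initial knock-out (log2 fold change -0.38, SE 0.128, 95% interval -0.66 to -0.11, adjusted p 0.0459) and not called at the final harvest (-0.29, adjusted p 0.154). The initial DNAJB9 call was lost in 9 alternatives, among them the removal of the initial wild-type replicate 1 or 3, the final wild-type replicate 2 or 3, any initial knock-out library or the final knock-out replicate 2 (highest adjusted p 0.148). The final difference passed without the final knock-out replicate 1 (adjusted p 0.0206). DNAJB9 lies on chromosome 7 among genes that were also lower: of its 20 nearest expressed genes (10 on each side, mean log2 CPM 1 or more), 17 were below 0 at each harvest, with medians of -0.25 and -0.22.

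The other chaperones, the nucleotide exchange factor HYOU1, the lectin chaperones CALR and CANX, DNAJB11, MANF and HSP90B1, were not called at either harvest. Their fold changes ran from -0.15 for HSP90B1 to 0.30 for MANF at the initial harvest and from -0.07 to 0.27 at the final harvest. MANF, a secreted ER stress-inducible protein, had 65.9, 95.7 and 88.4 CPM in the initial wild type and 91.5, 108 and 108 CPM in the initial knock-out, with overlap (0.30, adjusted p 0.0836), and 87.6, 82.8 and 84.6 against 95.02, 101 and 111 CPM at the final harvest, without overlap (0.27, adjusted p 0.122). MANF passed at the initial harvest without the initial wild-type replicate 2 and at the final harvest without the initial wild-type replicate 1. CALR was above the wild type in every initial knock-out library, from 1249.7, 1324 and 1208 CPM to 1564, 1607 and 1404 CPM (0.28, adjusted p 0.0958). Leaving out the final wild-type replicate 1 brought CALR at the initial harvest (adjusted p 0.0398) and CANX at the final harvest (0.0109) past the threshold.

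**Figure D2:**
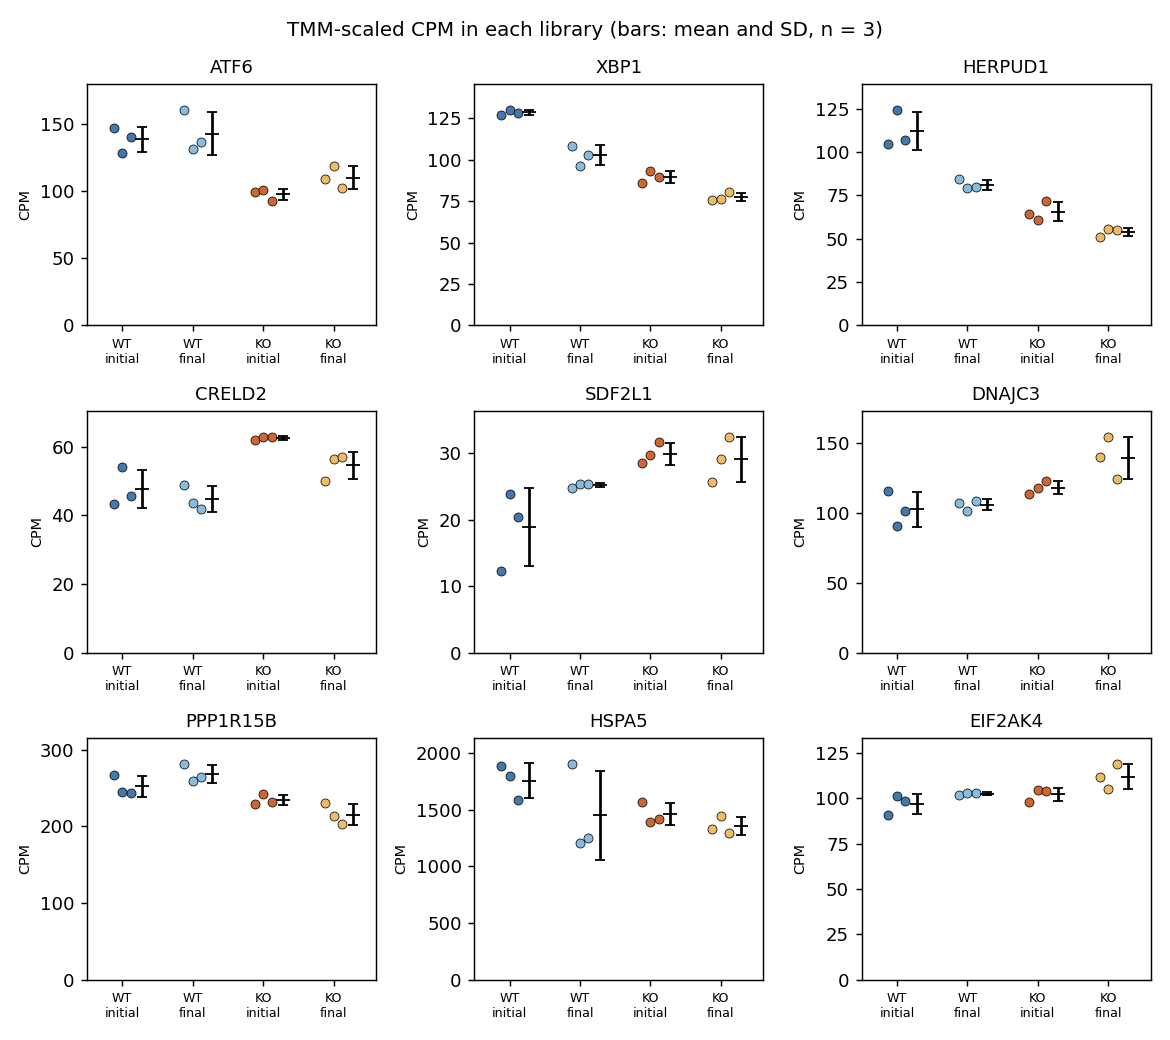
TMM-scaled CPM (y axis, from 0) of 9 members in each of the 12 libraries (points, by group on the x axis), with mean and SD of 3 libraries beside them. ATF6, XBP1 and HERPUD1 sit lower in the knock-out at both harvests, CRELD2 higher, EIF2AK4 between 91.0 and 119 CPM in all groups, and 1 final wild-type library stands high for HSPA5 (1903 CPM).

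The 5 oxidoreductases, which form disulfide bonds in the ER, showed no call in any comparison (edgeR quasi-likelihood test, 0 of 5, and 0 of 5 at an unadjusted p under 0.05 or in DESeq2). PDIA4 had the largest difference, with 795, 802 and 750.4 CPM in the initial wild type and 954, 929 and 863 CPM in the initial knock-out (log2 fold change 0.23, SE 0.111, 95% interval -0.01 to 0.46, adjusted p 0.176). PDIA4 passed at the final harvest only without the final wild-type replicate 1 (adjusted p 0.0313). PDIA3, PDIA6, ERO1A and ERO1B had fold changes between -0.15 and 0.07 at the initial harvest and between -0.14 and 0.03 at the final harvest, and for all 5 genes the 95% intervals lay within 1.5-fold in every comparison between 2 groups. ERO1B passed at the initial harvest in 1 alternative, without the initial wild-type replicate 2 (adjusted p 0.0267).

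SEC61A1 (ENSG00000058262.10, chromosome 3, 128051641 to 128071683, plus strand), the channel subunit of the translocon through which proteins enter the ER, had 678, 618 and 586 CPM in the wild type initially and 741, 567 and 584 CPM finally. SEC61A1 in the knock-out stood at 833, 807 and 738 CPM initially and 712, 778 and 745 CPM finally. It was higher in the initial knock-out without overlap, 793 ± 49.3 against 627 ± 46.9 CPM (SD, n = 3; log2 fold change 0.34, SE 0.106, 95% interval 0.11 to 0.56, adjusted p 0.0343). Final libraries overlapped because of replicate 1 of the wild type, and the difference was not called (0.24, adjusted p 0.136), though it passed without that library (adjusted p 0.0112). The initial call was lost in 4 alternatives, each leaving out 1 library (initial wild-type replicate 2 or 3, initial knock-out replicate 1 or 2). SEC61B, the small beta subunit, overlapped at both harvests (0.15 and 0.05).

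HERPUD1 differed most among the members. HERPUD1 (ENSG00000051108.15, chromosome 16, 56932142 to 56944864, plus strand) encodes an ER membrane protein of the degradation complex, and its transcription is known to answer both to the ER sensors and to ATF4. It was measured at 104, 125 and 107 CPM in the wild type initially and 84.6, 79.4 and 79.7 CPM finally. HERPUD1 in the knock-out stood at 64.5, 60.7 and 71.8 CPM initially and 51.1, 55.5 and 55.03 CPM finally. The 4 groups did not overlap and stood in the order initial wild type, final wild type, initial knock-out, final knock-out. Means were 112 ± 10.9, 81.2 ± 2.94, 65.7 ± 5.63 and 53.9 ± 2.39 CPM in that order (SD, n = 3). The knock-out had 58.6% of the wild-type level at the initial harvest (log2 fold change -0.77, SE 0.0869, 95% interval -0.96 to -0.59, adjusted p 8.16e-06) and 66.3% at the final harvest (log2 fold change -0.59, SE 0.0872, 95% interval -0.78 to -0.41, adjusted p 0.00013). Both calls were kept in all 18 alternatives. The 20 nearest expressed genes had medians of -0.01 at both harvests.

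EDEM1 (ENSG00000134109.11, chromosome 3, 5187646 to 5219958, plus strand), a mannosidase-like protein that routes glycoproteins to degradation, had 95.6, 67.8 and 83.4 CPM in the wild type initially and 55.8, 50.6 and 51.1 CPM finally. EDEM1 in the knock-out stood at 69.8, 60.9 and 62.6 CPM initially and 46.97, 56.5 and 43.9 CPM finally. The initial groups overlapped, because replicate 2 of the wild type was below replicate 1 of the knock-out. It was lower in the initial knock-out (log2 fold change -0.35, SE 0.117, 95% interval -0.60 to -0.10, adjusted p 0.0442), a call lost in 9 alternatives, among them the removal of the initial wild-type replicate 1 or 3, the final wild-type replicate 2 or 3, the initial knock-out replicate 2 or 3 or the final knock-out replicate 1 (highest adjusted p 0.192), and it was not called at the final harvest (-0.10, adjusted p 0.645). The other degradation genes tested, the ubiquitin ligase SYVN1 (HRD1), its partner SEL1L, the mannosidase-like EDEM2 and EDEM3 and the derlins DERL1 and DERL2, were not called, with fold changes between -0.16 and 0.06 at the initial and between -0.15 and 0.17 at the final harvest. SEL1L varied most between libraries, with 180.0, 107 and 142 CPM in the initial wild type, and passed at the initial harvest in 1 alternative, without the initial wild-type replicate 2 (adjusted p 0.0477).

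Transcripts of the 3 eIF2alpha kinases among the members were not called in any comparison, by edgeR or by DESeq2. Of these, 1, EIF2AK3 at the final harvest, had an unadjusted p under 0.05. EIF2AK2, a further kinase of this family, was listed with the other ER genes and was not called between genotypes at either harvest. EIF2AK4 (GCN2, the sensor of amino acid shortage; ENSG00000128829.12, chromosome 15, 39934115 to 40035591, plus strand) had 90.99, 101 and 98.7 CPM in the wild type initially and 102, 103 and 103 CPM finally. EIF2AK4 in the knock-out stood at 97.8, 105 and 104 CPM initially and 112, 105 and 119 CPM finally. Its groups overlapped at the initial harvest and not at the final one, where the knock-out was slightly above, and the 95% intervals of the log2 fold change were narrow, -0.08 to 0.23 and -0.03 to 0.29 (adjusted p 0.543 and 0.271). EIF2AK1 (HRI), with 213 to 271 CPM over all libraries, had fold changes of 0.03 (95% interval -0.19 to 0.25) and -0.001 (-0.22 to 0.22). Transcript levels say nothing of kinase activity, which was not measured.

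Of the 2 regulatory subunits of the eIF2alpha phosphatase, PPP1R15B was called lower at the final harvest and PPP1R15A at neither; the subunits were not tested against each other. PPP1R15B (CReP, the constitutive subunit; ENSG00000158615.9, chromosome 1, 204403381 to 204411817, minus strand) had 267, 245 and 244 CPM in the wild type initially and 281, 259 and 265 CPM finally. PPP1R15B in the knock-out stood at 229, 242 and 232 CPM initially and 230.1, 213 and 203 CPM finally. At the final harvest the knock-out was lower without overlap, 215 ± 13.9 against 268 ± 11.8 CPM (SD, n = 3; log2 fold change -0.32, SE 0.0787, 95% interval -0.49 to -0.15, adjusted p 0.00873), a call kept in all 18 alternatives, and at the initial harvest it was not called (-0.10, adjusted p 0.395). PPP1R15A (GADD34, the stress-inducible subunit and a target of ATF4) had 101, 118 and 99.3 CPM in the wild type initially and 129.8, 83.00 and 78.2 CPM finally. PPP1R15A in the knock-out stood at 97.5, 86.8 and 88.1 CPM initially and 96.3, 71.7 and 74.2 CPM finally. Replicate 1 was high in the final wild type. Its fold changes were -0.23 (95% interval -0.56 to 0.11, adjusted p 0.352) and -0.26 (-0.60 to 0.07, 0.288).

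With 2 months of culture, 4 of the 34 members fell in the wild type, 11.8% beside 6.47% of all genes tested, and no member rose (3.42% of all genes fell and 3.05% rose). The 4 were EDEM1 (log2 fold change -0.65, SE 0.118, 95% interval -0.90 to -0.40, adjusted p 0.00307), DNAJB9 (-0.54, adjusted p 0.018), HERPUD1 (-0.46, 0.00359) and XBP1 (-0.33, 0.0108), all without overlap between the harvests. DNAJB9 and EDEM1 are known targets of XBP1, but whether XBP1 took part in their fall was not tested. The oxidoreductases and the remaining chaperones and degradation genes, kinds that XBP1 and ATF6 also raise, were not called in this comparison. DNAJB9 was lost without the initial wild-type replicate 1 or 3 or the final wild-type replicate 2, and XBP1 without the final wild-type replicate 2 or 3 and when only these groups were fitted. HSPA5 was not called (-0.27, adjusted p 0.313), and without the final wild-type replicate 1 it passed with a log2 fold change of -0.53 and adjusted p 0.00617. Median log2 fold change over the members was -0.03, and -0.14 without that library. ERN1 likewise passed only without it (adjusted p 0.0306).

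In the knock-out 0 of 34 members were called between harvests, beside 1.48% of all genes (edgeR quasi-likelihood test); 7 had an unadjusted p under 0.05, and DESeq2 called 1 (DNAJB9). The 7 were DNAJB9 (-0.45, adjusted p 0.112), EDEM1 (-0.39, adjusted p 0.118), HERPUD1 (-0.29, adjusted p 0.124), XBP1 (-0.21, adjusted p 0.174), CRELD2 (-0.20, adjusted p 0.33), DNAJC3 (0.24, adjusted p 0.244) and EDEM3 (0.24, adjusted p 0.311). EDEM1 passed without the initial wild-type replicate 1 or 2 and DNAJB9 without the final knock-out replicate 1. Both also passed without the low-count filter. With only the knock-out groups fitted, DNAJB9, EDEM1 and HERPUD1 passed (HERPUD1 with adjusted p 0.0496), beside 728 of all genes. XBP1 passed in none of the 18 alternatives. The 4 genes that fell in the wild type thus had negative values in the knock-out too, without a call in the main fit. Whether the change with time differed between genotypes was tested as an interaction, and 0 of 34 members were called, beside 1.28% of all genes, with none at an unadjusted p under 0.05 and none in DESeq2. The interaction of HERPUD1 was 0.18 (95% interval -0.08 to 0.44), of EDEM1 0.26 (-0.10 to 0.61) and of XBP1 0.12 (-0.10 to 0.33).

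The amino acid stress genes moved otherwise. Of 45 genes listed (ATF4 and its targets in amino acid synthesis, transport and tRNA charging, with stress regulators), 38 were lower and 1, ATF5, was higher in the initial knock-out, 86.7% called beside 19.9% of all genes. In the final knock-out 28 were lower and none higher, 62.2% beside 18.5%. The medians of their log2 fold changes were -0.57 and -0.44, where those of the ER members were 0.03 and 0.02. Over time in the wild type 15 fell (33.3% beside 6.47%), with a median of -0.22, against -0.03 for the ER members, and in the knock-out 1 fell, DDIT3, with a median of -0.07. GPT2 was the only one of the 45 with a called interaction (0.52, adjusted p 0.0292 in edgeR's quasi-likelihood test), 2.22% beside 1.28% of all genes. It was named after its value was seen. These genes were listed with their direction in these data known, so their fall is not independent evidence, and the medians describe the lists without a test.

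Individual genes of this list follow, and not all of them are typical of it. CHAC1 had the lowest fold change of the list at both harvests. TRIB3 and ASNS also lay below its lower quartiles (-0.89 initially and -0.69 finally), so they exceed the usual shift, whose medians were -0.57 and -0.44. ATF4 mRNA (ENSG00000128272.17, chromosome 22, 39519695 to 39522683, plus strand) had 401, 526 and 431 CPM in the wild type initially and 379, 404 and 396 CPM finally. ATF4 in the knock-out stood at 365, 368 and 367 CPM initially and 333, 292 and 351 CPM finally. The genotypes did not overlap at either harvest, with fold changes of -0.30 (adjusted p 0.0436, lost in 11 of 18 alternatives and, of the single libraries left out, kept only without the initial or final wild-type replicate 1 or the final knock-out replicate 2) and -0.27 (adjusted p 0.0729, passing without the initial wild-type replicate 1 or 2); ATF4 is controlled mainly at translation. CHAC1 (glutathione-degrading enzyme; ENSG00000128965.13, chromosome 15, 40952962 to 40956512, plus strand) had 33.1, 53.4 and 42.1 CPM in the wild type initially and 21.6, 24.00 and 24.7 CPM finally. CHAC1 in the knock-out stood at 5.90, 6.24 and 6.97 CPM initially and 5.81, 4.67 and 5.95 CPM finally. Its fold changes were -2.75 and -2.10 (adjusted p 3.25e-09 and 5.81e-08). All CHAC1 values of the knock-out were below those of the wild type. TRIB3 (a pseudokinase induced by ATF4; ENSG00000101255.12, chromosome 20, 362835 to 397559, plus strand) had 115, 174 and 129 against 42.1, 44.1 and 43.9 CPM initially and 86.9, 96.4 and 95.8 against 41.5, 37.1 and 45.8 CPM finally (-1.68 and -1.17, adjusted p 8.92e-08 and 4.1e-06). ASNS (asparagine synthetase; ENSG00000070669.17, chromosome 7, 97851677 to 97872542, minus strand) had 21.8, 14.7 and 15.8 against 5.47, 4.66 and 4.36 CPM and 9.17, 9.09 and 9.60 against 4.65, 5.33 and 3.49 CPM initially and finally. The ASNS fold changes were -1.85 and -1.05 (adjusted p 5.03e-07 and 0.00025).

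DDIT3 (CHOP; ENSG00000175197.13, chromosome 12, 57516588 to 57521737, minus strand), a target of ATF4 that is also the usual marker of PERK signalling, had 25.96, 29.2 and 22.3 CPM in the wild type initially and 16.5, 10.6 and 9.73 CPM finally. DDIT3 in the knock-out stood at 16.6, 11.9 and 15.8 CPM initially and 8.83, 8.57 and 6.83 CPM finally. It was lower in the knock-out at both harvests (log2 fold change -0.80, SE 0.175, 95% interval -1.17 to -0.43, adjusted p 0.00373 and log2 fold change -0.60, SE 0.185, 95% interval -0.99 to -0.21, adjusted p 0.0315) and fell with time in the wild type (-1.07, adjusted p 0.00148) and the knock-out (-0.87, 0.0243). The final DDIT3 call was lost without the final wild-type replicate 1 or the final knock-out replicate 2 or 3 (highest adjusted p 0.18), and the fall in the knock-out was lost without any 1 of 5 knock-out libraries, all but the initial replicate 2. Among the ER members, the genotype fold changes of HERPUD1 (-0.77 and -0.59) lay between those of ATF4 and DDIT3 at both harvests. So did those of XBP1 (-0.52 and -0.41), ATF6 (-0.51 and -0.38) and DNAJB9 (-0.38 and -0.29, called only initially). HSPA5, CALR and the oxidoreductases were not called. Whether ATF4 took part in any of these differences was not tested.

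**Figure D3:**
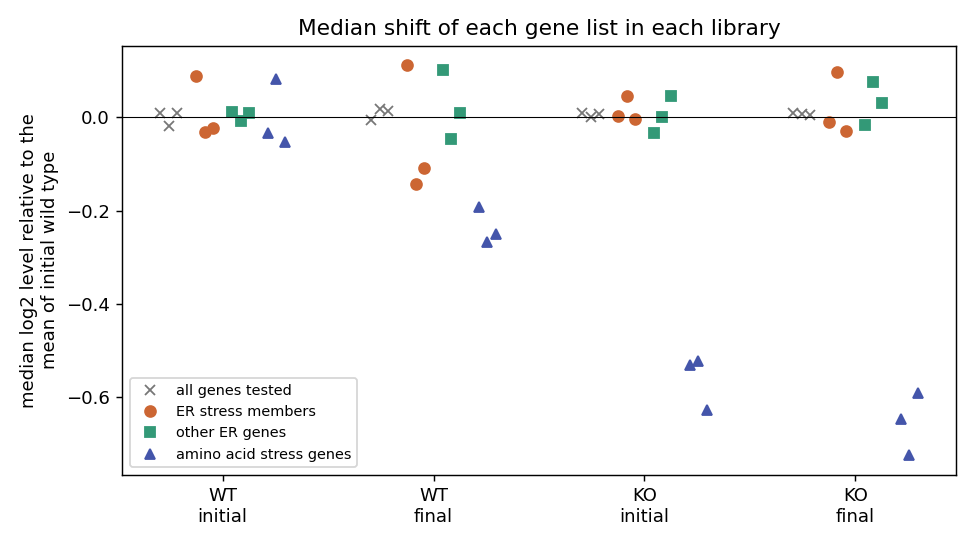
Median log2 level of each list in each of the 12 libraries, relative to the mean of the initial wild type (y axis), by group (x axis), for all genes tested, the 34 ER members, 42 other ER genes and 45 amino acid stress genes. Amino acid stress genes sit at -0.19 to -0.27 in the final wild type and at -0.52 to -0.73 in the knock-out, and the ER members between -0.14 and 0.11 in all libraries.

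Relative to the mean of the initial wild type, library medians of the ER members were 0.05 or less in size in the initial knock-out and between -0.03 and 0.10 in the final knock-out. The final wild type spread more, with 0.11 in replicate 1 and -0.14 and -0.11 in replicates 2 and 3. Library medians of the amino acid stress genes were -0.53, -0.52 and -0.63 in the initial and -0.65, -0.73 and -0.59 in the final knock-out, below every wild-type library. The elements printed above did not sort the members by direction: of those with ERSE, CRELD2 rose and XBP1 fell, of those with ERSE-II, SDF2L1 rose and HERPUD1 fell, and the others with either element were not called. Of the 2 members with C/EBP-ATF letters, HERPUD1 was lower at both harvests, and PPP1R15B was lower at the final harvest and not called initially (-0.10).

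Among 42 other genes of ER proteostasis that are no members, 6 were called at each harvest (14.3% beside 19.9% and 18.5% of all genes), with medians of 0.00 and -0.01. ATF6B, the paralogue of ATF6 (ENSG00000213676.13, chromosome 6, 32115264 to 32128253, minus strand), was also lower in the knock-out, with 29.2, 29.4 and 29.8 CPM in the wild type initially and 28.4, 23.1 and 24.2 CPM finally. ATF6B in the knock-out stood at 18.5, 19.7 and 17.3 CPM initially and 18.4, 20.7 and 17.4 CPM finally. Its genotypes did not overlap (log2 fold change -0.67, SE 0.0969, 95% interval -0.88 to -0.47, adjusted p 0.000107 and log2 fold change -0.43, SE 0.0971, 95% interval -0.63 to -0.22, adjusted p 0.0051). Of the 20 nearest expressed genes of ATF6B, 13 and 14 were below 0 initially and finally, with medians of -0.12 and -0.11. Whether this neighbourhood took part in the ATF6B difference was not tested. SSR1, a translocon-associated subunit (ENSG00000124783.14, chromosome 6, 7268306 to 7347446, minus strand), was at about the same reduced level in both knock-out groups, 136, 132 and 131 and 146, 142 and 118 CPM, against 303, 228 and 269 and 291, 249 and 256 CPM in the wild type (-1.004 and -0.97, adjusted p 5.2e-06 and 6.95e-06). On chromosome 6, all 20 of its nearest expressed genes were below 0, with medians of -0.87 and -0.90, and the same held for 20 of 20 neighbours of TXNDC5, another gene of the list (medians of -0.95 and -0.99). The number of gene copies was not measured.

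UBE2J2, a ubiquitin-conjugating enzyme of degradation (ENSG00000160087.21, chromosome 1, 1253909 to 1273864, minus strand), was higher in the initial knock-out, 46.00, 49.6 and 47.00 against 27.8, 39.1 and 36.99 CPM (log2 fold change 0.46, SE 0.113, 95% interval 0.22 to 0.70, adjusted p 0.00871), and TXNDC11, a thioredoxin-domain protein (ENSG00000153066.13, chromosome 16, 11679083 to 11742857, minus strand), likewise, 53.5, 55.4 and 50.6 against 42.2, 46.2 and 42.00 CPM (0.29, adjusted p 0.0146; lost in 4 alternatives, among them without the initial wild-type replicate 3 or the initial knock-out replicate 1 or 2). Neither was called at the final harvest. CREB3L2, an ER-bound transcription factor that is processed like ATF6 (ENSG00000182158.15, chromosome 7, 137874979 to 138002086, minus strand), had 139, 128 and 149 CPM in the wild type initially and 97.9, 104 and 109 CPM finally. CREB3L2 in the knock-out stood at 127, 136 and 136 CPM initially and 137, 147 and 138 CPM finally. It fell with time in the wild type (-0.42, adjusted p 0.00366), was higher in the final knock-out (0.44, adjusted p 0.000728) and not called at the initial harvest (-0.06, adjusted p 0.64). The remaining calls were lower values of TXNDC5 (both harvests), HSPA13 (initial), PDIA5 and DNAJC1 (final).

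Neighbouring genes of the other called members had medians closer to 0 than those of DNAJB9. The 20 nearest expressed genes had medians of -0.02 and 0.02 around ATF6, 0.06 and -0.02 around XBP1, -0.06 and -0.07 around PPP1R15B, and -0.06 and -0.10 around SEC61A1, whose own values were above 0. Around EDEM1, 17 neighbours had medians of -0.002 and 0.06. Around SDF2L1, 4 of 20 were below 0 at the initial harvest, with a median of 0.15, where SDF2L1 itself was at 0.67, and 10 of 20 at the final harvest (median 0.01). Around CRELD2, 5 and 8 of 20 were below 0, with medians of 0.08 and 0.02, so that most neighbours of SDF2L1 and CRELD2 at the initial harvest were above 0 as these genes were. Around DNAJC3, 7 of 20 were below 0 at the final harvest, with a median of 0.14, where DNAJC3 was at 0.40. Around PPP1R15B, 13 of 20 were below 0 at the final harvest. Whether the neighbourhood took part in these differences was not tested. Annotated overlaps also bear on these counts, because it is not given in the sources used here whether strand was used in counting: 1 gene overlaps ATF6 on its strand, 2 overlap HERPUD1 and 3 overlap DNAJC3, and 1 gene overlaps CRELD2, DNAJC3, PPP1R15B and EDEM1 each on the other strand and 2 overlap SEC61A1. XBP1, SDF2L1 and DNAJB9 have no annotated overlap.

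Levels per length, in mean CPM per kb of exon over all 12 libraries, differed widely between members. CALR was the most abundant member at 512, followed by PDIA4 at 246, HSPA5 at 230.5, HSP90B1 at 155, SEC61A1 at 151 and PDIA3 at 144. The sensors were among the lowest, with 1.43 for EIF2AK3, 1.82 for ERN1 and 8.56 for ATF6, and ERO1B stood at 2.69, beside 18.3 for ERO1A. HRI was the kinase with the most transcript per length, 44.2 for EIF2AK1 against 8.63 for EIF2AK4. PPP1R15B, at 46.1, exceeded PPP1R15A, at 30.6. Exon length here is the union of all annotated exons, so the level of a gene with many transcripts is understated.

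**Figure D4:**
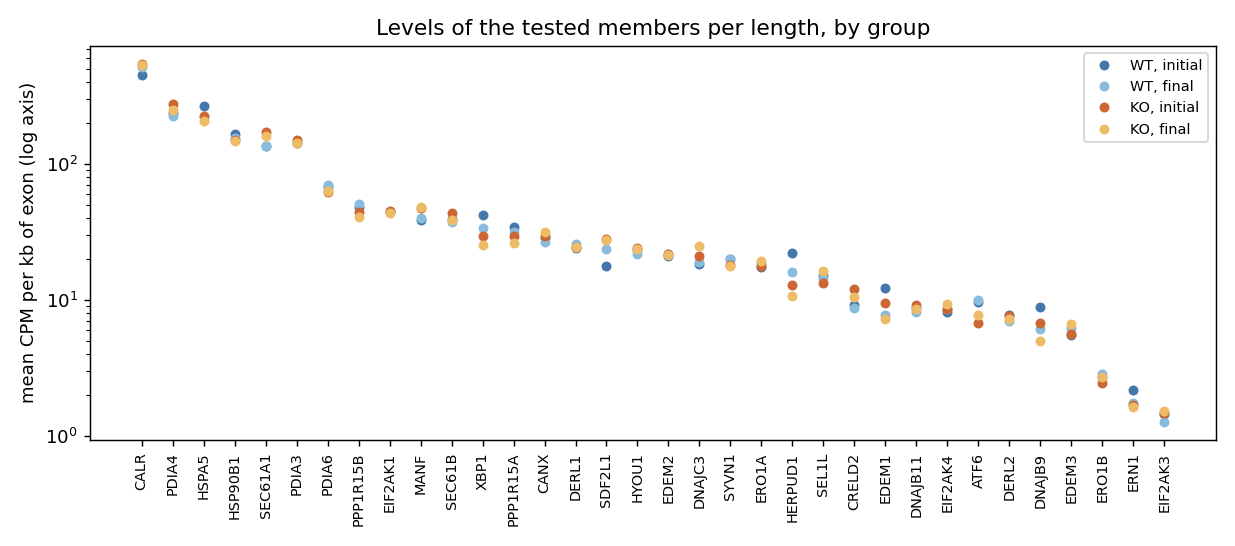
Mean CPM per kb of exon (log axis) of the 34 tested members, ordered by level, with 1 point per group of 3 libraries. CALR lies highest and EIF2AK3 lowest, and the 4 groups of a gene lie close together beside the differences between genes.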

How the data were processed

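RNA was sequenced from 12 poly-A selected libraries of HCT116 cells, 3 in each of 4 groups. The deposited file holds raw whole-number counts per gene and library, without normalization, in the layout of featureCounts, per the file headers; STAR, featureCounts and Subread with hg38 are named, without versions, per the submitters' processing notes. Annotation release, use of strand and treatment of multi-mapped reads are not given in the sources used here. The file also gives the exon length of each gene, per the file headers, used only for levels per length. Symbols were found for 60462 of 60648 genes, and 5 lines into which a spreadsheet had broken 1 gene were left out.

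Genes were kept with filterByExpr by group (18289), scaled with TMM. The robust quasi-likelihood fit of 4 group means used edgeR 4.0.16, with limma 3.58.1 under R 4.3.3, and gave a biological coefficient of variation of 9.77%. There were 5 comparisons, adjusted by Benjamini-Hochberg over all genes tested and called under 0.05. The samples are labelled biological replicates, with no record of separate cultures, so p-values measure the spread between these libraries. Intervals and floors cover counting error and this spread only. Alternatives were RLE and upper-quartile factors, no low-count filter, DESeq2 1.42.0, only the groups compared, the replicate number as a block, and leaving out each of 12 libraries. The scripts were tested on simulated data.

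Motifs were searched in RefSeq promoters (GRCh38.p14). Per-library values are given for members called between genotypes and for HSPA5, XBP1, ERN1, ATF6, EIF2AK3 and EIF2AK4; ATF4, DDIT3, TRIB3, ASNS and CHAC1 were named from the amino acid list, and from the other ER list the 2 called genes with the smallest adjusted p in each direction at each harvest. The members and lists were chosen with earlier results of these data known.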

Additional observations from a re-analysis of the deposited data

Results flagged for a closer look

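CREB3L2 differed between the genotypes in its change with time. The interaction was a log2 difference of 0.50 (SE 0.111, 95% interval 0.27 to 0.74, adjusted p 0.0326 in edgeR's quasi-likelihood test): it fell by 0.42 on the log2 scale in the wild type, in all 3 final libraries against all 3 initial ones, and had a value of 0.08 in the knock-out. The call was lost when any 1 of 10 libraries was left out, that is all but the initial wild-type replicate 2 and the final wild-type replicate 1 (adjusted p over all alternatives 0.000593 to 0.126). CREB3L2 was the only one of the ER genes, members or not, with a called interaction. That is 1 of the 42 other ER genes (2.38%) and 0 of the 34 members, beside 1.28% of all genes tested. Such a count is near the background and is not a result about the ER genes. The difference of 1 clone from the wild type and the loss of MTHFD2 cannot be told apart.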

How the results depend on the processing

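Of 136 member results, 18 were called, 12 of these were kept in all 18 alternatives and 6 were lost in at least 1, with the libraries named beside each gene, and 19 that were not called passed in at least 1. No called value changed sign. The number of members called ran from 5 to 11 at the initial harvest, 5 to 10 at the final harvest, 2 to 6 over time in the wild type and 0 to 1 over time in the knock-out when single libraries were left out. In the same fits the calls over all genes ran from 2423 to 4615, 2561 to 3895, 627 to 1399 and 94 to 463. The number of members was 5 without the initial wild-type replicate 3 or the initial knock-out replicate 2 (2542 and 2423 of all genes). It was 10 at the final harvest without the final wild-type replicate 1 (3195 of all genes), and 2 over time without the final wild-type replicate 2 (637). Over time in the knock-out it was 2 without the low-count filter, 1 in DESeq2 and 3 when only these groups were fitted, beside 484, 602 and 728 of all genes. With single libraries left out, median log2 fold changes ran from -0.0729 (without the initial wild-type replicate 2) to 0.0330 at the initial harvest, from -0.0281 (without the final wild-type replicate 2) to 0.0904 (without the final wild-type replicate 1) at the final harvest and from -0.142 (without the final wild-type replicate 1) to 0.0172 (without the final wild-type replicate 2) over time in the wild type. With upper-quartile factors they were 0.0410 and 0.0440 at the initial and final harvest. With the 300-base promoter window, 11 amino acid stress genes held C/EBP-ATF letters, where 5 had. The causes were not tested.

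Replicate numbers did not pair the libraries throughout: deviations of same-numbered libraries correlated between -0.153 and 0.216, over 0.1 in 4 of 12 pairs. For replicates 1, 2 and 3 the values were 0.216, 0.132 and -0.005 between the initial genotypes and 0.150, 0.066 and 0.011 over time in the wild type. Between the final genotypes they were -0.149, -0.121 and 0.110, and over time in the knock-out -0.129, -0.153 and 0.030. A partial pairing was not tested. With the replicate block, 10 members were called between genotypes initially, 5 finally, 4 over time in the wild type, 0 in the knock-out and 0 for the interaction. Over all genes the block gave 3539, 3298, 1123, 246 and 217 calls in that order. The block ended the final call of CRELD2 (adjusted p 0.0536) and the initial call of ATF4 (0.0586), and MANF (0.0475) and ERN1 (0.0248) passed initially.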
